A study of Mus musculus with 6 samples.

Results

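The RNAs described here are 8 short structural non-coding RNA genes of the mouse: Rn7sk (7SK RNA), Rn7s1 and Rn7s2 (7SL RNA), Rny1 and Rny3 (Y RNAs), Vaultrc5 (vault RNA), Rmrp (the RNA of RNase MRP) and Rpph1 (the RNA of RNase P). They were taken by name from the 42450 genes of a total RNA count table, and were selected on their levels by length and library in the contrast of Srrm2+/- with WT, known from the same libraries. All 8 passed the filter on low counts that left 18905 genes for testing. Total RNA was sequenced from male E14tg2a.4 cells, a mouse embryonic stem cell line, in 2 groups of 3 libraries, wild type (WT) and Srrm2+/-. The Srrm2+/- line is 1 gene-trap clone of E14tg2a.4 that carries a truncating insertion in 1 allele of Srrm2, a gene for a splicing-associated protein of nuclear speckles, and both lines came from the same repository. Both were grown on gelatin in medium with LIF and then in serum-free ESGRO medium with LIF. The labels give 24 or 72 hours for this last step without saying which library had which, and the study's methods give 48 hours of growth for total RNA. Replicates were cells frozen at 3 passages of each line, and the WT passages were later than those of Srrm2+/-, so passage number and clone cannot be told apart from genotype.

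RNA polymerase III makes all of these RNAs, and each works as the scaffold of an RNA-protein particle. 7SK RNA holds the elongation kinase P-TEFb in an inactive complex through HEXIM proteins, 7SL RNA is the core of the signal recognition particle that brings ribosomes to the endoplasmic reticulum, and Y RNAs bind the Ro60 and La proteins. Vault RNA sits in the large vault particle, RNase P trims the leaders of tRNA precursors, and RNase MRP cleaves the precursor of ribosomal RNA.

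The sequences below are shown because they let the Y RNAs be compared base by base, and because they show the known HEXIM1 motif of 7SK RNA. All were read 5′ to 3′ from GENCODE release M21 transcripts on build GRCm38. Rny1 is a gene of 112 bases at chr6:47788069-47788180 on the minus strand, and Rny3 one of 102 bases at chr6:47781624-47781725 on the plus strand. Capitals mark the bases that are identical in an alignment of the pair, 81 of 112 columns or 72.3%, with a longest identical run of 12.
Rny1: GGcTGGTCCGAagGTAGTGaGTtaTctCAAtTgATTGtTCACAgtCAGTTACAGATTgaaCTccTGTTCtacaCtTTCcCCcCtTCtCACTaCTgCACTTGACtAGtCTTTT
Rny3: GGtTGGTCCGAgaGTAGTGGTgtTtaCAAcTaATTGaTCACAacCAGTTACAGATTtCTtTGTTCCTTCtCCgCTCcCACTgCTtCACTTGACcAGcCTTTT
The reads could tell the pair apart, since no 31-base word, the length that Kallisto matches by default, was common to both. Rn7sk is a gene of 331 bases at chr9:78175303-78175633 on the minus strand. Its first 110 bases are printed with GATC in capitals, since paired GAUC motifs in the 5′ hairpin of 7SK RNA are where HEXIM1 is known to bind.
Rn7sk, positions 1 to 110: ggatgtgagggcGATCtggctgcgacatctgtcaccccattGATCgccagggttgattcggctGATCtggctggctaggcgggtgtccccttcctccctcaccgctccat
GATC occurred 3 times in the whole of Rn7sk, at positions 13 to 16, 42 to 45 and 64 to 67. The capitals mark every GATC, and which of them HEXIM1 binds was not examined here. The motif is its own reverse complement, and 51.5% of 19566 annotated transcripts of at most 400 bases hold it at least once. Rn7s1 and Rn7s2 both lie on chromosome 12 and are 300 bases long. Because the pair was identical over 300 of 300 bases, their estimated counts were the same in all 6 libraries, and reads were divided equally between them. They are 1 measurement, so the 8 genes gave 7 separate ones.

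Vaultrc5 spans 143 bases at chr18:36801866-36802008 on the plus strand. Rmrp spans 271 bases at chr4:43492788-43493058 on the minus strand, and Rpph1 spans 319 bases at chr14:50807449-50807767, also on the minus strand. A run of T ends genes of RNA polymerase III. The annotated sequences of Rny1, Rny3 and Vaultrc5 ended in 4 T, that of Rn7sk in 3, those of the 7SL genes in 2, and those of Rmrp and Rpph1 in none.

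The libraries held between 54151433 and 69933421 estimated counts. Srrm2, the trapped gene, had a normalised level of 91.2, 98.3 and 97.7 CPM (counts per 1000000 counts of the scaled library) in WT and 62.3, 56.2 and 59.6 CPM in Srrm2+/-, a log2 fold change of -0.69 ± 0.05 (SE, edgeR quasi-likelihood test, adjusted p = 2.38e-05). All 8 markers of embryonic stem cells were detected, at a summed 4220 to 4303 CPM in WT and 3585 to 3655 CPM in Srrm2+/-. Markers of primitive endoderm summed to 3.47 to 4.69 CPM in WT and 17.9 to 23.9 CPM in Srrm2+/-, and those of fibroblasts to 3.80 to 3.88 and 6.77 to 10.1 CPM. Of these lists, 1 stem cell marker of 8 tested was called higher and 5 lower, against 2 higher of 6 tested for primitive endoderm and 3 higher of 6 tested for fibroblasts, with none lower. Among all tested genes 13.6% were called higher and 11.7% lower. No marker was at 0 in every library, and the part of these shifts in the values below was not tested.

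The structural RNAs held a large share of each library. Together they took 8.86 ± 1.17% of all estimated counts in WT and 9.73 ± 0.693% of those in Srrm2+/- (SD, n = 3 per group), with 7.51% to 10.3% in single libraries. 7SL RNA alone took 5.32 ± 0.812% and 6.18 ± 0.466%. Mitochondrial genes took 2.59% to 2.85% and ribosomal RNA genes 0.236% to 0.337%. These are shares of the estimated counts, which hold little ribosomal RNA, and not shares of all RNA in the cell. Such a share cannot tell fewer molecules per cell from a change in all other counted RNA. Spike-in RNA was added to each sample, but no scaling to it was used here.

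**Figure D1:**
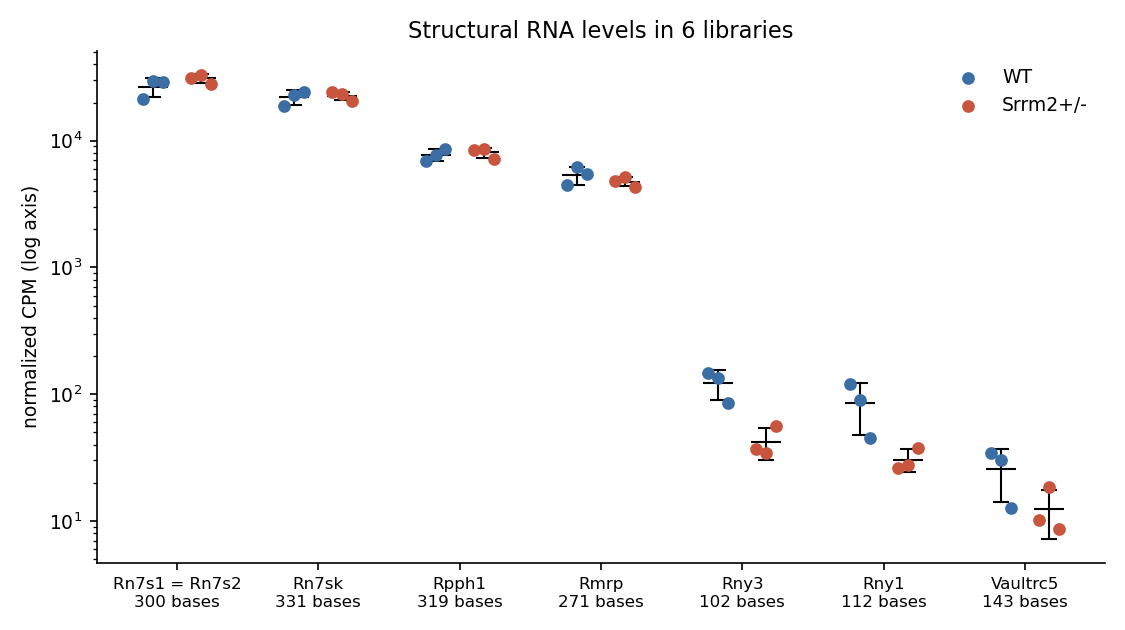
Normalised CPM of the structural RNAs in each library, on a log axis, with replicates 1 to 3 from left to right in each group; black bars give the mean and SD of 3 libraries. Rn7sk, 7SL, Rpph1 and Rmrp sit at 4345 CPM or above with overlapping groups, whereas Rny1 and Rny3 sit lower in every Srrm2+/- library than in any WT library.

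Levels of different genes are given per kilobase of annotated length. Recovery of RNAs near the read length of 75 bases was not measured, so the order of long and short RNAs may not be that of molecules. In WT, the level per kilobase was 88818 ± 15219 CPM for each 7SL copy, 66797 ± 8802 for Rn7sk, 24364 ± 2569 for Rpph1, 19741 ± 3175 for Rmrp, 1198 ± 321 for Rny3, 763 ± 339 for Rny1 and 180 ± 80.5 for Vaultrc5 (SD, n = 3). The order was the same in Srrm2+/-, at 103208 ± 8636, 68362 ± 5267, 25295 ± 2391, 17514 ± 1449, 415 ± 118, 272 ± 56.0 and 86.7 ± 36.8 CPM per kilobase. In WT, 3 pairs of neighbours in that order had overlapping libraries, a single 7SL copy with Rn7sk, Rpph1 with Rmrp and Rny3 with Rny1. In Srrm2+/- only Rny3 and Rny1 overlapped. Within each single library, however, the order of these 3 pairs held. Relative to both 7SL copies summed, Rn7sk per base was only 0.399, 0.353 and 0.383 in WT.

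The fold changes between genotypes are given as descriptions with no test, since the genes were chosen with this contrast known. The 5 genes of 271 to 331 bases had log2 fold changes between -0.17 and 0.22 and overlapping groups, and the 3 genes of 143 bases or less had lower means in Srrm2+/-, with log2 fold changes between -1.53 and -1.05. By the call rule used for all genes, an edgeR adjusted p under 0.05 over 18905 genes, 25.3% of all tested genes were called, with 13.6% of all higher and 11.7% of all lower in Srrm2+/-. By the same rule 2 of the 8 genes were past the threshold, Rny1 and Rny3, both lower. That share is close to the share of all tested genes called, so it is no result about these genes. Groups that did not overlap were found for these 2 of 8 genes and for 41.4% of all tested genes, 20% of all with Srrm2+/- lower. The median log2 fold change of the 8 genes was -0.07, and that of all tested genes was -0.003.

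7SK RNA stood at 18832, 23095 and 24403 CPM in WT and at 24006, 23210 and 20668 CPM in Srrm2+/-. All Srrm2+/- libraries lay between the lowest and the highest WT library. The log2 fold change of Rn7sk was 0.03 ± 0.09 (SE), and its sign turned when WT replicate 1 was left out, at -0.07, and when Srrm2+/- replicate 1 was left out, at -0.01.

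Each 7SL copy, Rn7s1 or Rn7s2, stood at 21392, 29655 and 28889 CPM in WT and at 31497, 33244 and 28146 CPM in Srrm2+/-. WT replicate 1 was the lowest of the 6, and Srrm2+/- replicate 3 lay below the other WT libraries. The log2 fold change was 0.22 ± 0.12 (SE) and fell to 0.08 without WT replicate 1. Relative to 7SL summed over both copies, 7SK per base was 0.378 ± 0.0233 in WT libraries against 0.332 ± 0.0145 in those of Srrm2+/- (SD, n = 3 per group), and the groups did not overlap. The closest libraries were at 0.353 in WT and 0.345 in Srrm2+/-, and no test was made of the difference.

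The catalytic RNAs of the RNases lay in the middle of the range. Rpph1 stood at 6964, 7749 and 8603 CPM in WT and at 8462, 8555 and 7190 CPM in Srrm2+/-, with overlapping groups. Its log2 fold change was 0.05 ± 0.09 (SE), and -0.02 without WT replicate 1. Rmrp stood at 4437, 6146 and 5466 CPM in WT and at 4764, 5130 and 4345 CPM in Srrm2+/-, where 1 library lay below and the others between the WT libraries. Its log2 fold change was -0.17 ± 0.11 (SE), and -0.06 without WT replicate 2.

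RNase P and RNase MRP have most of their proteins in common, so the ratio of their RNAs was also computed. Rmrp per base was 0.750, 0.934 and 0.748 of Rpph1 in WT and 0.663, 0.706 and 0.711 of it in Srrm2+/-. Every Srrm2+/- ratio was lower than any WT ratio, but the closest libraries were at 0.711 and 0.748. In level, 41.4% of all tested genes also had groups that did not overlap. The means were 0.811 ± 0.107 and 0.693 ± 0.0266 (SD, n = 3 per group), and no test was made of the difference.

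Y RNAs were lower in Srrm2+/-. Rny3 stood at 148, 133 and 85.4 CPM in WT and at 36.6, 34.1 and 56.1 CPM in Srrm2+/-. The groups did not overlap, although WT replicate 3 lay closest to the Srrm2+/- libraries. The mean in Srrm2+/- was 34.6% of that in WT, a log2 fold change of -1.53 ± 0.23 (SE).

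Rny1 stood at 121, 90.2 and 45.3 CPM in WT and at 26.2, 27.5 and 37.6 CPM in Srrm2+/-. WT replicate 3 and Srrm2+/- replicate 3 were again the closest libraries of the groups. The mean in Srrm2+/- was 35.6% of that in WT, a log2 fold change of -1.49 ± 0.30 (SE). The ratio of Rny1 to Rny3 per base was 0.615 ± 0.130 in WT libraries against 0.665 ± 0.0623 in those of Srrm2+/- (SD, n = 3 per group), so the pair was lower by like amounts and its ratio overlapped between groups.

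Vault RNA had the fewest estimated counts of these RNAs, 533 to 1905 per library. Vaultrc5 stood at 34.3, 30.1 and 12.6 CPM in WT and at 10.1, 18.4 and 8.64 CPM in Srrm2+/-. Srrm2+/- replicate 2 lay above WT replicate 3, so the groups overlapped. The log2 fold change was -1.05 ± 0.37 (SE), with -0.79 when WT replicate 1 was left out and -1.45 when Srrm2+/- replicate 2 was left out.

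Against 7SK RNA, Rny3 per base was 0.0255, 0.0187 and 0.0114 in WT and 0.00495, 0.00477 and 0.00880 in Srrm2+/-. Every Srrm2+/- ratio of this pair was lower than any WT ratio. Since Rny3 alone did not overlap between groups and Rn7sk was near level, this ratio is no separate result. Relative to Rny3, Vaultrc5 per base was 0.144 ± 0.0335 in WT libraries against 0.231 ± 0.140 in those of Srrm2+/- (SD, n = 3 per group), with overlapping groups.

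Other genes of snoRNA, scaRNA, snRNA, miRNA, ribozyme or miscellaneous RNA type, up to 400 bases long, were set beside the structural RNAs by annotated length. In the bin of 100 to under 150 bases, which holds the lengths of the Y and vault RNAs, 93 of 304 genes, or 30.6%, were called lower and 1 higher, with a median log2 fold change of -0.40. In the bin of 150 to under 200 bases, 20 of 58 were called lower and none higher, with a median of -0.61. These shares compare with 11.7% called lower among all tested genes. Genes with identical counts in all 6 libraries were counted separately here. The 304 genes held 286 distinct count profiles, with a median of -0.41, and the 58 genes held 44, with a median of -0.59.

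At the lengths of 7SK, 7SL and the RNase RNAs the other genes were less uniform. Of 48 other genes of 200 to under 300 bases, 6 were called lower and none higher, with a median log2 fold change of -0.06, and of 19 genes of 300 to 400 bases none was called, with a median of -0.22. Under 100 bases, 7 of 182 genes were called higher and 11 lower, with a median of 0.01. The type of RNA went with the difference within a bin. Of the genes of 100 to under 150 bases, 127 snoRNA genes had a median of -0.97 with 77 called lower, 47 snRNA genes a median of -0.51 with 11 lower, and 117 miRNA genes a median of 0.16 with 1 lower and 1 higher. The make-up of the bins differed, with 112 miRNA genes of 182 under 100 bases and 45 snRNA genes of 58 at 150 to under 200. Length was thus not separated from RNA type among these genes. The part of either in the lower Y and vault RNA was not tested.

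**Figure D2:**
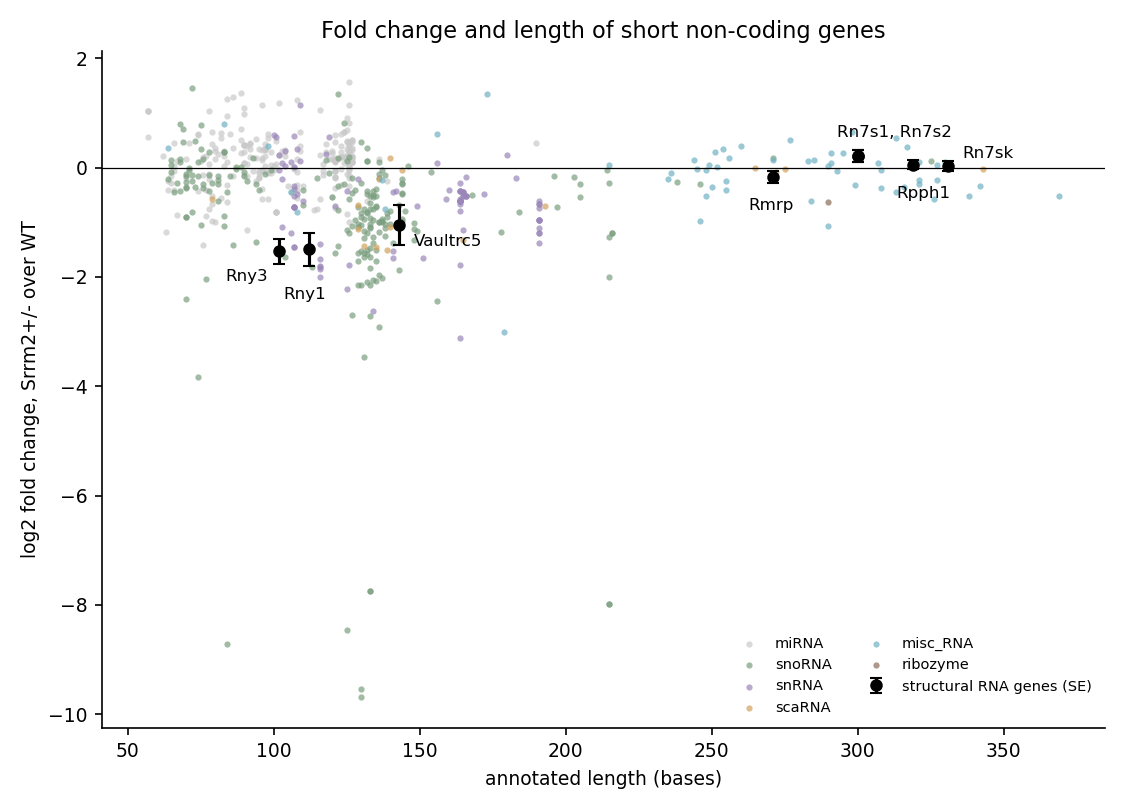
Log2 fold change of Srrm2+/- over WT against annotated length in bases, for other short non-coding genes by type (coloured points) and for the structural RNAs (black points, bars give the SE). Rny1, Rny3 and Vaultrc5 sit between -1.53 and -1.05 among lower snoRNA and snRNA genes, and the 5 longer structural RNAs between -0.17 and 0.22.

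The summed level of the other genes of 100 to under 150 bases was 3563, 4124 and 2192 CPM in WT and 1436, 1908 and 1471 CPM in Srrm2+/-, so the Srrm2+/- mean was 48.7% of the WT mean. WT replicate 3 was the lowest WT library in this sum, as it was for Rny1, Rny3 and Vaultrc5. The sum for 150 to under 200 bases was 17713, 18072 and 10820 CPM in WT and 8804, 12558 and 8241 CPM in Srrm2+/-, in which Srrm2+/- replicate 2 lay above WT replicate 3, as it did for Vaultrc5.

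Taken as a percentage of the sum for 100 to under 150 bases in the same library, Rny3 was 4.15, 3.23 and 3.90 in WT and 2.55, 1.79 and 3.81 in Srrm2+/-. The groups then overlapped, and the log2 ratio of the means was -0.47. Rny1 gave -0.39 and Vaultrc5 -0.01 on the same scale, both with overlapping groups. For all 3 the difference relative to other RNA genes of like length was nearer to 0 than that relative to the whole library. The sum was itself lower in Srrm2+/-, so any gene with level CPM would be higher on this scale. It was led by the snRNA genes Gm24265 and Gm24407, at 17.9% and 13.2% of the WT sum. Their log2 fold changes were -1.66 ± 0.25 and -1.52 ± 0.23 (SE). Gm22988, a snoRNA gene, took 10.7% at -0.30 ± 0.11 (SE). The median of the bin was -0.40. This scale was chosen after the data had been seen.

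The long structural RNAs were higher in Srrm2+/- on such a scale. As a log2 ratio to the sum of other short non-coding genes of 200 to 400 bases, 7SL was 0.86, Rpph1 0.69, Rn7sk 0.67 and Rmrp 0.48 higher. None of the 4 overlapped between groups. The part of that sum from genes of 200 to under 300 bases was itself lower in Srrm2+/-. It was 3408, 4452 and 3279 CPM in WT and 2056, 2422 and 2326 CPM in Srrm2+/-. Any gene with level CPM would thus be higher on this scale, so the missing overlap is not particular to these RNAs. That sum was led by the U3 snoRNA genes Rnu3b1 and Rnu3b3, which took 24.7% each of the WT sum for 200 to under 300 bases and had a log2 fold change of -1.20 ± 0.19 (SE). By bin, the summed level in Srrm2+/- was 169% of that in WT under 100 bases and 48.7% at 100 to under 150. It was 63.5% at 150 to under 200, 61.1% at 200 to under 300 and 106% at 300 to 400 bases. These sums did not follow length in 1 direction, and a few genes led some of them. Gm23935, Gm24270 and Gm24245, miRNA genes of equal level, each took 23.0% of the WT sum under 100 bases. Their log2 fold change was 1.04 ± 0.12 (SE), so the 169% rests largely on them. Scarna10 took 70.4% of the WT sum at 300 to 400 bases.

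**Figure D3:**
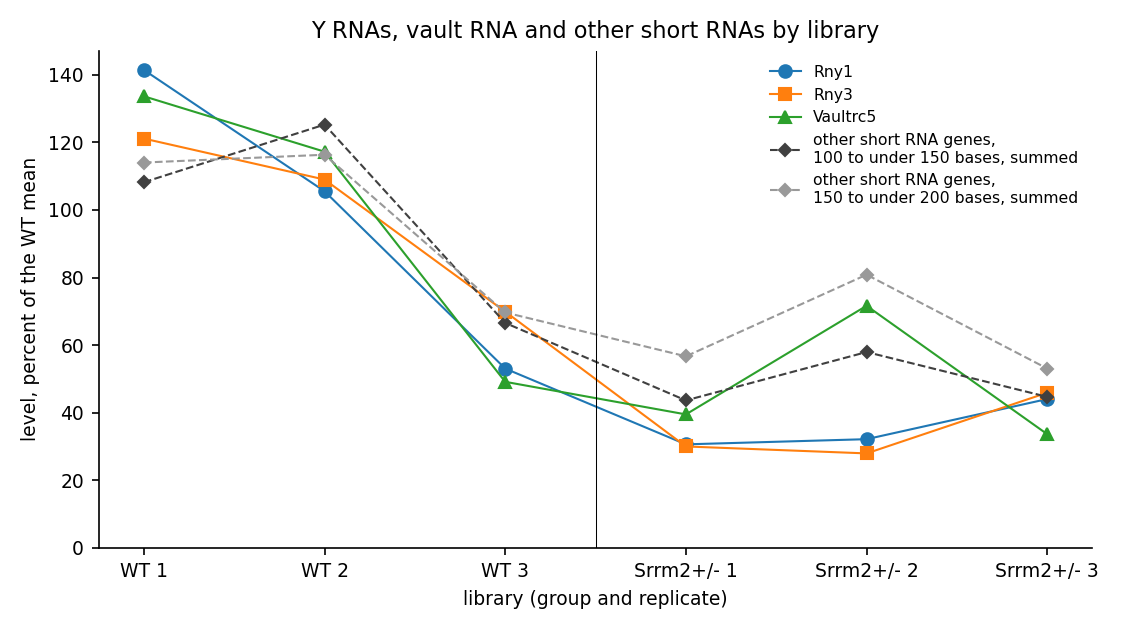
Level in each library as a percentage of the WT mean, for Rny1, Rny3 and Vaultrc5 and for the summed other short non-coding genes of 100 to under 150 and 150 to under 200 bases; lines join the values of 1 feature and imply no order among libraries. WT replicate 3 lies below the other WT libraries in all 5 features.

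For each structural RNA, the genes with the most similar pattern over the 6 libraries were found by the root mean square (RMS) difference of log2 CPM after each gene was centred on its own mean, among 4874 genes whose log2 CPM averaged 5 or more. Since only 6 libraries in 2 groups enter, this is a description. The nearest genes to Rn7sk were the replication-dependent histone genes Hist1h4f (RMS 0.031), Hist1h2ap (0.035) and Hist1h3b (0.035), and those to Rpph1 were Hist1h3c (0.032), Hist1h3d (0.037) and Hist1h4f (0.039). Of the 20 nearest genes, 13 for Rn7sk, 15 for Rpph1, 7 for 7SL and 4 for Rmrp were genes of the 4 Hist clusters, which made up 54 of the genes searched, or 1.11%. That count was made after the nearest genes had been seen, and near-identical histone genes divide reads among themselves, so they are not separate points.

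The histone genes had a median log2 fold change of 0.01, beside 0.03 for Rn7sk and 0.05 for Rpph1. Of these 54 genes 5 were called higher and 2 lower, against 13.6% and 11.7% of all tested genes. For 7SL the nearest genes past its own copy were Scarna10, a Cajal body RNA gene of 325 bases, at 0.075 and Hist1h2bf at 0.083. For Rmrp they were Rpl37rt, an annotated pseudogene, at 0.055, Fam129a at 0.067 and Baz2b at 0.071.

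**Figure D4:**
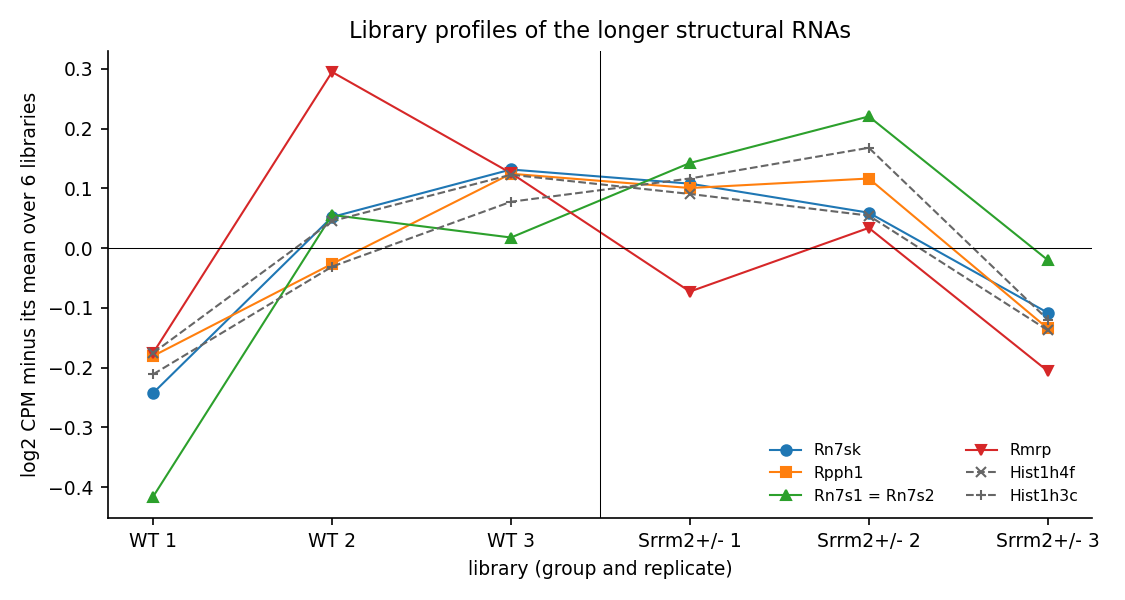
Log2 CPM of the longer structural RNAs and of the histone genes Hist1h4f and Hist1h3c in each library, minus the mean of each gene over the 6 libraries; lines join the values of 1 gene and imply no order among libraries. All 6 genes are lowest or next to lowest in WT replicate 1, and the histone genes follow Rn7sk and Rpph1 at RMS differences of 0.031 to 0.039 for the pairs named in the text.

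The short RNAs had no histone gene among their 20 nearest genes. Rny3 lay nearest to Gm22973, an snRNA gene of 191 bases (RMS 0.130), then to Rnu12, the U12 snRNA of the minor spliceosome (0.187), and to Rny1 (0.206). Rny1 lay nearest to Gm25099, an snRNA gene of 116 bases (0.203), then to Rny3, and to Rnu5g, a U5 snRNA gene of 116 bases (0.212). Vaultrc5 lay nearest to Snora81, a snoRNA gene of 178 bases (0.165). Thus each of the 3 had other short RNA genes as its nearest, with larger differences than the long RNAs had to theirs. The measure keeps the difference between genotypes, so genes lower in Srrm2+/- lie near other such genes. Spread within groups was also wider for the 3, at 0.40 to 0.69 log2 units against 0.15 to 0.20 for the longer RNAs. No relation between the genes is read from these distances.

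Near-identical copies could take reads from these genes, so the levels of genes with common 31-base words were checked. Rny3 and Vaultrc5 had no such word in another annotated gene. Genes that had words in common with Rn7sk held at most 0.062% of its count in any library, those with 7SL at most 0.0192%, those with Rny1 at most 0.168%, those with Rmrp at most 0.258% and those with Rpph1 at most 1.29%. The annotated copies with at least 50% of their words in common with 7SK, Gm26315, Gm24447 and Gm26035, had log2 fold changes of 0.10, -0.51 and -0.37, and the 7SL copy Rn7s6 one of 0.28, none of them called. All words of Rmrp also occur in a longer second annotated Rmrp entry, not analysed here, and reads of that entry and of Rmrp cannot be told apart.

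The protein partners of these RNAs were next compared, as 8 lists set by known membership of each complex. Over all lists 6 of 66 tested genes were called higher and 6 lower, 18.2% in all, against 25.3% of all tested genes. No list had most of its genes called, and every adjusted p below is from edgeR over all 18905 genes.

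Among 8 genes of the 7SK particle and P-TEFb, 1 was called lower and the median log2 fold change was -0.06. Hexim1, the inhibitor that 7SK RNA brings to P-TEFb, stood at 31.7, 33.3 and 31.3 CPM in WT and at 26.3, 30.3 and 27.2 CPM in Srrm2+/-, and fell by 0.20 ± 0.06 (SE, edgeR adjusted p = 0.0428). The call was lost in 7 of 15 alternative settings, among them every left-out library except Srrm2+/- replicate 2. Larp7 and Mepce, which bind and cap 7SK RNA, and the kinase subunits Cdk9 and Ccnt1 were not called, with log2 fold changes of 0.05, -0.06, 0.08 and -0.05.

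Of 9 tested genes for the signal recognition particle and its receptor, 1 was called lower, with a median of 0.03. Srpra, the alpha subunit of the receptor, listed as Srpr, stood at 103, 103 and 101 CPM in WT and at 92.2, 90.5 and 96.9 CPM in Srrm2+/-, and fell by 0.14 ± 0.04 (SE, edgeR adjusted p = 0.0326). It lost its call in 7 of 15 alternatives, among them every left-out library except Srrm2+/- replicate 3. No protein of the particle itself was called, and Srp54b was not analysed here.

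Of 6 genes for proteins that bind Y RNAs, 2 were called higher and none lower, with a median of 0.002. Ro60, the ring-shaped protein that binds the stem of Y RNAs, listed as Trove2, stood at 45.4, 37.5 and 43.1 CPM in WT and at 48.8, 49.4 and 52.4 CPM in Srrm2+/-. It rose by 0.26 ± 0.07 on the log2 scale (SE, edgeR adjusted p = 0.0259). Its mRNA was thus higher in the group in which Rny1 and Rny3 were lower, and no link between them was tested. Its call was lost without Srrm2+/- replicate 2 (adjusted p = 0.0585) or Srrm2+/- replicate 3 (adjusted p = 0.0950). Ptbp1, an RNA-binding splicing repressor, rose by 0.19 ± 0.06 (SE, edgeR adjusted p = 0.0434), with its call lost in 6 of 15 alternatives, among them every left-out library except WT replicate 3. Ssb, which encodes La and holds the 3′ ends of new RNA polymerase III transcripts, was not called (log2 fold change -0.08, edgeR adjusted p = 0.149).

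Of 3 genes for vault proteins, Mvp, which encodes the major vault protein that builds the shell, was called higher. It stood at 30.6, 29.2 and 27.2 CPM in WT and at 34.0, 38.4 and 42.2 CPM in Srrm2+/-, and rose by 0.40 ± 0.08 (SE, edgeR adjusted p = 0.00687). All Srrm2+/- libraries were above all WT libraries, and the call held in all 15 alternatives. Parp4 and Tep1, the minor vault proteins, were not called, with log2 fold changes of 0.11 and 0.12.

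Of 11 genes for the proteins of RNase P and RNase MRP, 1 was called lower, with a median of 0.001. Rpp25, a subunit that binds the RNA of both enzymes, stood at 39.9, 44.1 and 42.3 CPM in WT and at 27.7, 28.8 and 28.5 CPM in Srrm2+/-. It fell by 0.57 ± 0.05 (SE, edgeR adjusted p = 7.19e-05), and the call held in all 15 alternatives. Its relative Rpp25l had 13.8 ± 0.487 CPM in WT libraries against 14.6 ± 0.505 CPM in those of Srrm2+/- (SD, n = 3 per group) and was not called.

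**Figure D5:**
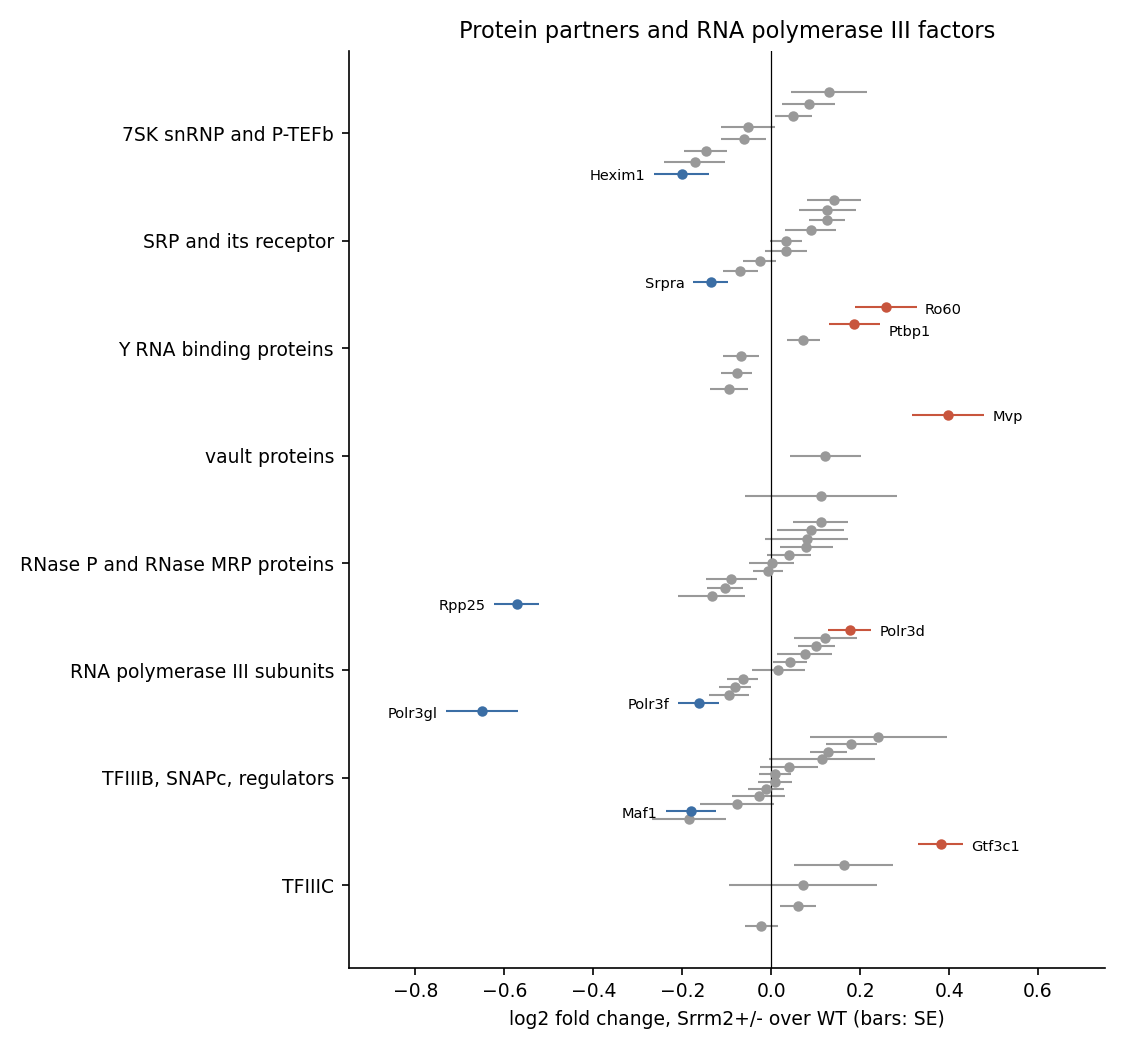
Log2 fold change of Srrm2+/- over WT for tested genes of protein partners and RNA polymerase III factors, by list, with bars for the SE; red and blue points were called higher and lower at an edgeR adjusted p under 0.05, and grey points were not called. Rpp25 and Polr3gl sit lowest at -0.57 and -0.65, and Mvp and Gtf3c1 highest at 0.40 and 0.38.

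RNA polymerase III itself was represented by 12 subunit genes, of which 2 were called higher and 2 lower, with a median of 0.03. The alternative subunits Polr3g, the form typical of stem cells, and Polr3gl differed in size of change. Polr3gl stood at 12.4, 13.8 and 11.8 CPM in WT and at 8.22, 7.80 and 8.18 CPM in Srrm2+/- and fell by 0.65 ± 0.08 (SE, edgeR adjusted p = 0.000488), which held in all 15 alternatives. Polr3g had 142 ± 2.26 CPM in WT libraries against 134 ± 2.95 CPM in those of Srrm2+/- (SD, n = 3 per group) and was not called (log2 fold change -0.08, edgeR adjusted p = 0.140). The difference between these changes was not tested.

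Polr3d rose by 0.18 ± 0.05 (SE, edgeR adjusted p = 0.0290) and Polr3f fell by 0.16 ± 0.05 (SE, edgeR adjusted p = 0.0317). The call of Polr3d was lost in 4 of 15 alternatives, without WT replicate 2 or 3 or Srrm2+/- replicate 1 or 3, and that of Polr3f in 7 of 15, among them every left-out library except WT replicate 3. The large catalytic subunits Polr3a and Polr3b were not called, with log2 fold changes of 0.12 and -0.06.

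Among 12 genes for TFIIIB, SNAPc and regulators, which place the polymerase at its promoters, 1 was called lower, with a median of 0.01. That gene was Maf1, the repressor of RNA polymerase III, which fell by 0.18 ± 0.06 (SE, edgeR adjusted p = 0.0431) and lost its call in 7 of 15 alternatives, among them every left-out library except Srrm2+/- replicate 1. Of 5 tested genes of TFIIIC, the factor that binds internal promoters, Gtf3c1 was called higher, and Gtf3c2 was not analysed here. Gtf3c1 stood at 51.4, 57.0 and 56.9 CPM in WT and at 69.3, 72.6 and 73.4 CPM in Srrm2+/- and rose by 0.38 ± 0.05 (SE, edgeR adjusted p = 0.000719), in all 15 alternatives.

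The protein-coding genes beside the structural RNA genes were compared last, as the nearest on either side or across each. Of 14 tested, 3 were called lower and none higher, with a median of -0.07. Among all tested genes 25.3% were called, 11.7% of all lower, so no local trend is read from this count. Lrr1, an adaptor of a cullin ubiquitin ligase 9220 bases from Rn7s1, fell by 0.40 ± 0.09 (SE, edgeR adjusted p = 0.0146), and its call was lost without Srrm2+/- replicate 1 or 3. Gsta4, a glutathione transferase 7141 bases from Rn7sk, fell by 0.17 ± 0.04 (SE, edgeR adjusted p = 0.0163), and its call was lost without WT replicate 2 or Srrm2+/- replicate 1. Ccnb1ip1, which overlaps Rpph1 on the same strand, fell by 0.23 ± 0.06 (SE, edgeR adjusted p = 0.0162), and its call was lost without WT replicate 1 or Srrm2+/- replicate 1.

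Ccnb1ip1 and other genes hold 203 of the 289 words of Rpph1, or 70.2%, so reads there can be divided between the genes. Ezh2 and Pdia4, the nearest protein-coding genes on either side of both Rny1 and Rny3, were not called, with log2 fold changes of -0.07 and 0.10. Parp2, whose start is 74 bases from Rpph1 on the other strand, was not called (log2 fold change -0.05, edgeR adjusted p = 0.529), nor was Rps29, 109 bases from Rn7s1 (log2 fold change -0.05, edgeR adjusted p = 0.660). Ccdc107 overlaps Rmrp on the opposite strand and was not called (log2 fold change -0.17, edgeR adjusted p = 0.160).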

How the data were processed

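Total RNA libraries were made from 600 ng of TRIzol-extracted, DNase-treated RNA with the TruSeq Stranded total RNA kit and sequenced as paired 75-base reads. Reads were quantified by the authors with Kallisto 0.46.1 (version from the submitters' processing notes) on the GENCODE M24 mouse transcriptome (build GRCm38), who deposited estimated counts per gene, not normalised. The strand setting was not given in the sources used here, so antisense overlaps may exchange counts. Kallisto divides reads that fit several transcripts.

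Estimated counts were rounded, and genes past filterByExpr (minimum count 10, minimum total 15) were fitted in edgeR 4.0.16 (R 4.3.3; TMM normalisation, quasi-likelihood test, two-sided) with genotype as sole term. P-values were adjusted over 18905 genes by the Benjamini-Hochberg method. CPM used TMM-scaled library sizes. Symbols, lengths and types came from GENCODE M21, which matched 42156 of 42450 identifiers, and 80 tested genes had none. Sequence in common was counted in 31-base words on either strand. Precision was set by 3 libraries a group. Every pair of libraries in a group differed by more than sampling noise (reduced chi-square 16.2 or more). The deviations of libraries with the same replicate number correlated at -0.034 to -0.028, so the numbers were not used as pairs.

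The structural RNAs, the partner lists and the tests were chosen with earlier results of these data known. The genes named were the structural RNAs, called genes and core subunits of the lists, adjacent protein-coding genes, Srrm2, copies with at least 50% of their words in common with a structural RNA, and the 3 genes most like each structural RNA. The genes Rnu3b1, Rnu3b3, Gm23935, Gm24270, Gm24245, Gm24265, Gm24407 and Gm22988 fall outside this rule and were chosen after their values were seen. Alternatives were RLE, upper quartile and protein-coding TMM normalisation, normalisation without mitochondrial, rRNA and short RNA genes, DESeq2 1.42.0, limma 3.58.1 voom, other filters, the replicate block, each library left out, and, for the structural RNAs, scaling to short RNA genes, summed copies and unrounded counts. The fits were tested on simulated data. The values of 1 gene counted in the lists, also left out of the plot of the lists, and 1 sequence are not reported here.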

Additional observations from a re-analysis of the deposited data

How the results depend on the processing

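Levels of Rny1 and Rny3 were lower in Srrm2+/- under every alternative run, with log2 fold changes of -1.79 to -1.16 for Rny1 and -1.79 to -1.37 for Rny3 when 1 library was left out. Relative to other short RNA genes of like length, a scale chosen after seeing the data, the log2 values were -0.39 for Rny1, -0.47 for Rny3, -0.0076 for Vaultrc5, 0.67 for Rn7sk, 0.86 for Rn7s1 and for Rn7s2, 0.48 for Rmrp and 0.69 for Rpph1, since the sums they were divided by differed between groups. Scaled to all other short RNA genes, which moved the median of all genes by 0.19, Rn7sk stood at 0.22 and Rpph1 at 0.23. With 1 library left out, Rn7sk ranged from -0.07 to 0.11, 7SL from 0.08 to 0.30, Vaultrc5 from -1.45 to -0.79, Rmrp from -0.29 to -0.06 and Rpph1 from -0.02 to 0.14.

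The replicate numbers did not pair the libraries. With the replicate block, Rny1 was -1.41, Rny3 -1.53 and Vaultrc5 -1.01, and genes called among all tested went from 4781 to 4166. Left-out libraries gave 3515 to 4122 calls, from fewer samples. The block left 0 calls in the signal recognition particle list, 1 in the Y RNA binding list and 0 in the TFIIIB list.

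The 7SK list had 0 calls under upper quartile normalisation and under the filter of at least 1 count, and 2 under protein-coding TMM, removal of short RNA genes, DESeq2 and voom. The signal recognition particle list had 2 under upper quartile normalisation and the filter of at least 1 CPM, and 0 under that of at least 1 count. The TFIIIB list had 3, 3 and 0 under the same settings. The cause was not tested. With 1 library left out, calls ranged from 0 to 1 in the 7SK, signal recognition particle and TFIIIB lists, 0 to 2 in the Y RNA list, 2 to 3 among polymerase subunits and 6 to 8 over all lists.

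The median log2 fold change of other genes of 100 to under 150 bases was -0.18 with at least 1 count and -0.99 with at least 1 CPM required, under which fewer low genes enter. That of 300 to 400 bases was 0.048 under both filters and -0.20 to 0.0045 with 1 library left out, and that under 100 bases was -0.11 with at least 1 CPM and -0.062 to 0.035 with 1 library left out. Among the adjacent genes that were not called, Rps29 ranged from -0.12 to 0.028, above 0 without WT replicate 2, and Ttc5 from -0.047 to 0.037, above 0 without WT replicate 1. Leaving out Srrm2+/- replicate 1 also put Ttc5 above 0, at 0.0015.

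Depth did not limit the abundant RNAs. Vaultrc5 rested on as few as 533 counts in a library, and its spread between libraries within a group was wide. The protocol's recovery of RNAs near the read length was not measured, and passage number cannot be told apart from genotype.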
